A study of Homo sapiens with 12 samples.

Results

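Ferritin, heme oxygenase and the other iron handling transcripts were followed in 22Rv1 cells, an established line of castration-resistant prostate cancer. The set held 10 genes, taken by gene symbol from the 18668 genes of the deposited expression table, and each of them was listed and passed the filter on low counts. They were the ferritin heavy and light chain genes FTH1 and FTL, the heme oxygenase gene HMOX1, the uptake genes TFRC, SLC11A2 and SLC39A14, the heme exporter gene FLVCR1, the ferritin receptor gene NCOA4, and the regulators ACO1 and IREB2. Cells labelled as wild type were exposed for 24 h to a degrader, an autophagy-activating ligand, enzalutamide, a drug given in prostate cancer, or vehicle. By its label, the degrader targets the androgen receptor. There were 3 independent cultures in each of the 4 groups. The labels gave no doses, so the compounds could not be compared at matched doses. Polyadenylated RNA was sequenced in bulk, where fewer cells of a kind and less RNA per cell cannot be told apart.

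Cells take up iron bound to transferrin through the transferrin receptor and move it out of endosomes through divalent metal transporters. They keep the iron they do not use inside ferritin, a hollow shell of heavy and light chains. The receptor NCOA4 delivers ferritin to autophagosomes, and the stored iron is set free in lysosomes. Heme oxygenase 1 releases iron from heme, and its gene and both ferritin genes are known targets of the oxidative stress factor NRF2. When iron is scarce, the iron regulatory proteins encoded by ACO1 and IREB2 bind hairpins called iron-responsive elements. Binding near the start of a ferritin transcript blocks its translation, and binding behind the coding part of the transferrin receptor transcript protects it from decay. RNA sequencing of this kind reads transcript levels, which protection from decay can change. It does not read the translation of ferritin transcripts.

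The iron-responsive elements below show where FTL and TFRC differ in this control. A search of GENCODE 29 protein-coding transcripts on GRCh38 looked for a run of 17 bases, C and NNNNN, then CAGTGN, then NNNNN, with 5 paired stem bases on either side of a loop of 6, on the transcript's strand. FTL held 1 such site, in its 5′ UTR at chr19:48965341-48965357 on the plus strand. TFRC held 4, all in the 3′ UTR of its 3 transcripts on the minus strand of chromosome 3, and they are lettered here from upstream to downstream. Site a is at chr3:196050985-196051001, site b at chr3:196050581-196050597, site c at chr3:196050516-196050532 and site d at chr3:196050469-196050485. The 17 bases of each site are in capitals.
FTL 5′ UTR: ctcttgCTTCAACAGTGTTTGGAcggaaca
TFRC site a: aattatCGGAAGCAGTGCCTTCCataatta
TFRC site b: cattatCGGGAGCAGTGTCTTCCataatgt
TFRC site c: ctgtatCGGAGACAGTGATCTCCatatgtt
TFRC site d: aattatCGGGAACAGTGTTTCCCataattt
The same letters occurred anywhere in the transcripts of 281 of 19652 genes (1.43%), and in a UTR of 159 (0.809%). NCOA4, SLC11A2, IREB2, ACO1 and FLVCR1 held 0 sites of this form. The search took only stems paired throughout, so elements of another form would be missed. A count of 0 therefore does not show that a transcript lacks such an element. Sites were read out only for members with a promoter window, described next. FTH1, HMOX1 and SLC39A14 had none and were left out, so whether they hold such sites was not examined. Promoter windows from RefSeq on GRCh38.p14, 250 bases before to 50 after a start site, were matched for 7 of the 10 genes. The antioxidant response element TGACNNNGC, searched on both strands, is in 13.3% of 35116 windows. Among the 7 matched genes it was found only in 1 NCOA4 window. FTH1 and HMOX1 were not searched, nor were bases outside these windows. CACGTG, in 7.26% of windows, was found in none of the 7 genes.

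Between 58.3 and 77.2 M reads were counted per library with the degrader, 55.5 to 71.8 M with the ligand, 59.4 to 69.3 M with enzalutamide and 60.2 to 74.8 M with vehicle. All 9 luminal prostate markers were listed, with summed levels of 2455 to 2515 CPM (read counts scaled to library size) with the degrader, 2932 to 3004 with the ligand, 2694 to 2748 with enzalutamide and 3021 to 3113 with vehicle. Among markers of other cells, the leukocyte genes PTPRC and CD163, the erythroid gene HBB, PECAM1 and HAMP were not listed. HBA1, COL1A1, PDGFRB and ALB were listed, at summed levels of 188 to 213 CPM with the degrader, 249 to 267 with the ligand, 304 to 311 with enzalutamide and 252 to 265 with vehicle. ALB, a hepatocyte gene, was the highest of these. It averaged 174 CPM with the degrader, 224 with the ligand, 268 with enzalutamide and 224 with vehicle. The part of these shifts in the iron results was not tested.

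Ferritin transcripts were far above the other members. On the length-corrected FPKM scale, vehicle cells held 450.2 ± 47.6 FPKM of FTL and 439 ± 20.5 FPKM of FTH1, which did not differ beyond their spread (mean ± SD, n = 3). TFRC followed at 73.6 ± 3.36, NCOA4 at 51.0 ± 1.49, SLC11A2 at 29.97 ± 1.18, SLC39A14 at 22.6 ± 1.303 and IREB2 at 19.1 ± 1.37 FPKM. FLVCR1, at 6.31 ± 0.690, and ACO1, at 6.22 ± 0.511, also did not differ beyond their spread, and HMOX1 was lowest at 3.52 ± 0.306 FPKM. In this group FTL and FTH1 each stood above 99.4% of listed genes, and HMOX1 above 47.4%.

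Degrader-treated cells were first set against vehicle cells. HMOX1 and both ferritin chains rose most, by 1.09 (HMOX1), 0.65 (FTH1) and 0.62 (FTL) on the log2 scale. SLC11A2, ACO1 and SLC39A14 rose by 0.21, 0.19 and 0.17. IREB2 (-0.09) and NCOA4 (-0.05) had negative differences that were not called. In all, 6 of the 10 genes were called higher and 0 lower by edgeR's quasi-likelihood test at a Benjamini-Hochberg adjusted p under 0.05, where 16.4% of all 17702 genes tested were called higher and 16.4% lower. The members' median log2 fold change was 0.19, against 0.01 over all genes. The authors' deposited table also gave adjusted p-values under 0.05 for these 6 members and no other.

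**Figure D1:**
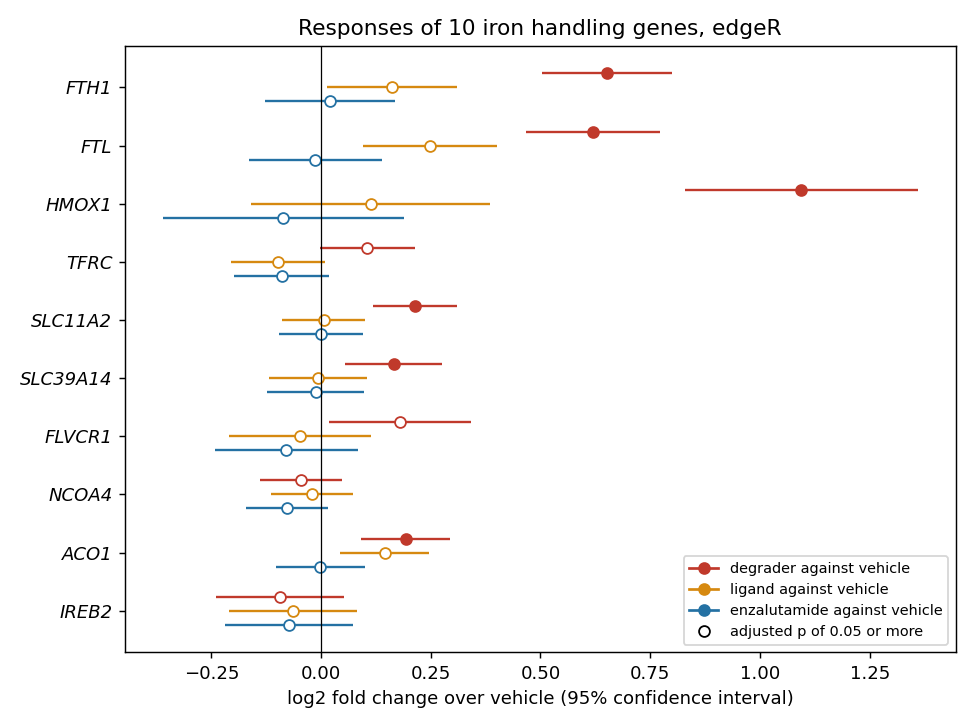
Log2 fold change of each of the 10 genes over vehicle for the degrader, the ligand and enzalutamide (x axis), with 95% confidence intervals as lines; filled points have an adjusted p under 0.05 by edgeR. The 6 filled points all belong to the degrader and lie between 0.17 (SLC39A14) and 1.09 (HMOX1).

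FTH1, the chain that oxidises iron as it enters the shell, had 1005, 893 and 856 CPM with the degrader. The ligand gave 676, 696 and 590.2 CPM, enzalutamide 638, 567 and 573 CPM, and vehicle 614, 577 and 562 CPM. All 3 degrader libraries were above every other library, while the other 3 groups overlapped. The degrader raised FTH1 by 0.65 over vehicle (SE 0.07, 95% confidence interval 0.50 to 0.80, adjusted p = 2.71e-06 by edgeR).

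FTL, the chain that helps the iron core to form, had 706, 642 and 654 CPM with the degrader. It had 556, 506 and 486 CPM with the ligand, 459.9 (replicate 1), 411 and 421 CPM with enzalutamide, and 489 (replicate 1), 403 and 409.7 CPM with vehicle. Degrader libraries were again above all others, and replicate 1 was the highest of its group in all 4 groups. FTL rose with the degrader by 0.62 (SE 0.07, 0.47 to 0.77, adjusted p = 6.58e-06). Together the ferritin genes took 0.160 ± 0.00964% of counted reads with the degrader, 0.116 ± 0.00727% with the ligand, 0.103 ± 0.00599% with enzalutamide and 0.101 ± 0.00664% with vehicle.

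The FTH1 to FTL read count ratio overlapped between all 4 groups. It was 1.42, 1.39 and 1.31 with the degrader, 1.22, 1.38 and 1.21 with the ligand, 1.39, 1.38 and 1.36 with enzalutamide, and 1.25, 1.43 and 1.37 with vehicle. On the log2 scale the degrader differed from vehicle by 0.02 (exact permutation p = 0.7, two-sided), the ligand by -0.09 (exact p = 0.3) and enzalutamide by 0.03 (exact p = 0.8), in a design of 3 against 3 that cannot go below 0.1. Ferritin has many processed copies in the genome, so reads could be split among them. The 10 listed FTH1 pseudogenes held 0.772 to 1.25% of the joint counts of FTH1 and its copies, and the 2 listed FTL pseudogenes 0.156 to 0.390%.

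HMOX1, the inducible heme oxygenase, had 15.5, 10.2 and 13.2 CPM with the degrader, from 769 to 1192 reads. Its levels were 6.80, 6.80 and 6.08 CPM with the ligand, 6.26, 5.26 and 5.66 CPM with enzalutamide, and 6.70, 5.72 and 5.78 CPM with vehicle. The degrader libraries were all above the other 9, and they were also the most spread. The rise over vehicle was 1.09 (SE 0.13, 0.83 to 1.36, adjusted p = 5.35e-06), a fold of 2.13. HMOX2, the constitutive heme oxygenase, was named after its values were seen: it averaged 28.9 ± 2.23 CPM with the degrader and 31.9 ± 1.36 CPM with vehicle (log2 fold change -0.15, adjusted p = 0.098).

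**Figure D2:**
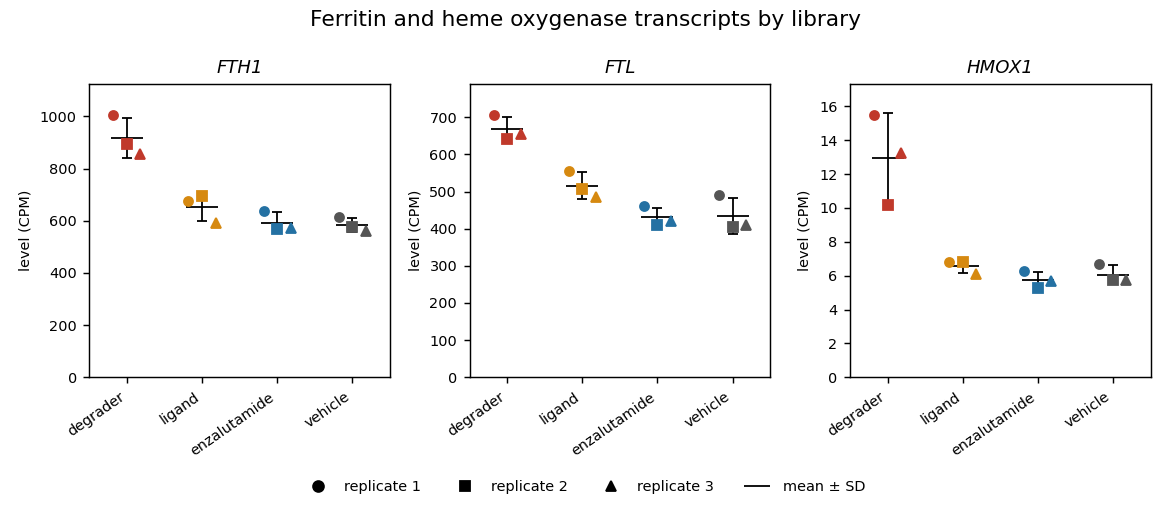
Level of FTH1, FTL and HMOX1 in each library in CPM (y axis, from 0) by group; marker shapes are the replicate numbers, and black lines are the mean ± SD of 3 libraries. The degrader libraries lie above all others in each panel, for example at 10.2 to 15.5 CPM of HMOX1 against 5.72 to 6.70 CPM with vehicle.

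Among the uptake genes, responses to the degrader were small. TFRC, the transferrin receptor whose hairpins are shown above, had 431, 435 and 451 CPM with the degrader, against 389, 411 and 424 CPM with vehicle. The groups did not overlap, yet the difference of 0.11 (SE 0.05, -0.0022 to 0.21) missed the threshold at an adjusted p of 0.126. SLC11A2, the divalent metal transporter DMT1, had 152, 153 and 157 CPM with the degrader and 128, 135 and 136 CPM with vehicle. It rose by 0.21 (SE 0.05, 0.12 to 0.31, adjusted p = 0.0016).

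SLC39A14, the zinc and iron importer ZIP14, had 127, 133 and 135 CPM with the degrader, against 111 (replicate 1), 122 and 119.8 CPM with vehicle. The rise was 0.17 (SE 0.05, 0.05 to 0.28, adjusted p = 0.0226). This call did not hold without degrader replicate 2 (0.16, adjusted p = 0.0709), degrader replicate 3 (0.14, 0.088) or vehicle replicate 1 (0.13, 0.112). FLVCR1, which exports heme, had 43.5, 47.9 and 49.0 CPM with the degrader and 36.4, 42.7 and 45.0 CPM with vehicle. These groups overlapped, and the difference of 0.18 (SE 0.08, 0.02 to 0.34) had an adjusted p of 0.0831. It passed without degrader replicate 1 (0.23, 0.0461) or without vehicle replicate 3 (0.24, 0.0328). Over both arms, degrader and vehicle levels of 7 of the 10 members did not overlap, as did those of 45.2% of all genes.

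NCOA4, the cargo receptor of ferritin autophagy, was at 188, 195 and 200.2 CPM with the degrader and at 200.2, 204 and 198 CPM with vehicle. The groups overlapped (log2 fold change -0.05, interval -0.14 to 0.05, adjusted p = 0.471), and its ligand levels of 204, 188 and 202 CPM lay in the same range. ACO1, the cytosolic aconitase that turns into iron regulatory protein 1 when it lacks its iron-sulfur cluster, had 53.7, 56.0 and 55.3 CPM with the degrader, against 47.1, 48.7 and 48.4 CPM with vehicle. It rose by 0.19 (SE 0.05, 0.09 to 0.29, adjusted p = 0.00509) with no overlap. IREB2, which encodes iron regulatory protein 2, had 121, 128 and 127 CPM with the degrader and 123.3, 136 and 141 CPM with vehicle. These overlapped, with a difference of -0.09 (-0.24 to 0.05, adjusted p = 0.323).

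**Figure D3:**
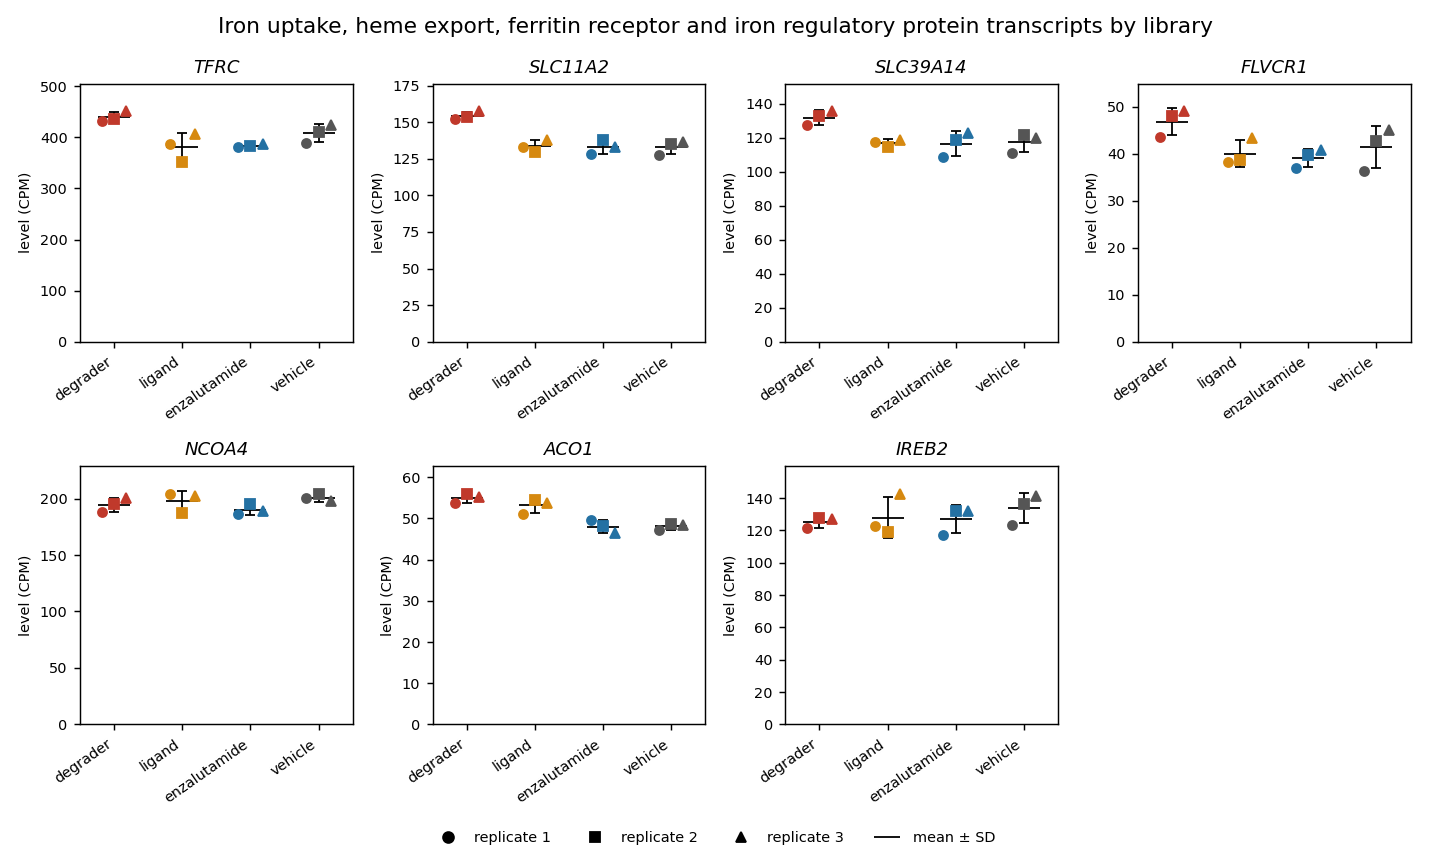
Level of the other 7 members in each library in CPM (y axes, from 0) by group; marker shapes are the replicate numbers, and black lines are the mean ± SD of 3 libraries. Degrader libraries sit above all vehicle libraries for TFRC, SLC11A2, SLC39A14 and ACO1 and overlap them for FLVCR1, NCOA4 and IREB2.

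The second comparison set the autophagy-activating ligand against vehicle. By edgeR 0 of the 10 genes were called, where 0.203% of all genes were called higher and 0.0339% lower. DESeq2 also called 0, and 3 members had an unadjusted p under 0.05. These were FTL at 0.25 (SE 0.07, 0.10 to 0.40, adjusted p = 0.294), FTH1 at 0.16 (SE 0.07, 0.01 to 0.31, adjusted p = 0.625) and ACO1 at 0.15 (SE 0.05, 0.04 to 0.25, adjusted p = 0.426). ACO1 levels of 51.1, 54.6 and 53.9 CPM with the ligand were above all 3 vehicle libraries, the one member without overlap, where 11.3% of all genes had none. Without vehicle replicate 1, its highest vehicle library, FTL was called, with a difference of 0.34 and an adjusted p of 0.0369. The remaining 7 members lay between -0.10 (TFRC) and 0.11 (HMOX1).

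Enzalutamide against vehicle gave 0 calls among the 10 genes by edgeR, 0 by DESeq2 and 0 at an unadjusted p under 0.05, where 0.35% of all genes were called higher and 1.09% lower. The differences ran from -0.09 to 0.02. TFRC had 381, 383 and 386 CPM with enzalutamide, below all vehicle libraries, at -0.09 (-0.20 to 0.02, adjusted p = 0.611). NCOA4 had 186, 195 and 189 CPM, also below all vehicle libraries, at -0.08 (-0.17 to 0.02, adjusted p = 0.611). Non-overlap was seen in 17.1% of all genes in this comparison. For the ferritin genes the intervals were -0.13 to 0.17 (FTH1) and -0.17 to 0.14 (FTL).

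Set against enzalutamide, the degrader gave higher levels of 8 of the 10 members and lower levels of 0, where 16.3% of all genes were called higher and 16.1% lower. The same number of members, 8, did not overlap between these groups, against 46.4% of all genes. HMOX1 was higher by 1.18 (SE 0.13, adjusted p = 2.79e-06), FTH1 by 0.63 (SE 0.07, 4.12e-06) and FTL by 0.63 (SE 0.07, 5.72e-06). TFRC was higher by 0.19 (SE 0.05, 0.09 to 0.30, adjusted p = 0.00761), with all 3 degrader libraries above the enzalutamide libraries. SLC11A2 (0.21), ACO1 (0.19), SLC39A14 (0.18) and FLVCR1 (0.26) were also called. FLVCR1 (adjusted p = 0.0159) was not called without degrader replicate 2 (0.0615), degrader replicate 3 (0.069) or enzalutamide replicate 1 (0.0741). SLC39A14 (adjusted p = 0.0154) was not called without these libraries either (0.0525, 0.0666 and 0.0942).

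Against the ligand, the degrader gave higher levels of 7 members and lower levels of 0, where 14.3% of all genes were called higher and 14.2% lower. Levels of 7 members did not overlap, against 38.7% of all genes. HMOX1 was higher by 0.98 (SE 0.13, 0.72 to 1.24, adjusted p = 2.41e-05), FTH1 by 0.49 (SE 0.07, 0.34 to 0.64, 7.4e-05) and FTL by 0.37 (SE 0.07, 0.22 to 0.52, 0.00109). TFRC was higher by 0.20 (adjusted p = 0.00678) and SLC11A2 by 0.21 (adjusted p = 0.0025). ACO1, raised over vehicle by the degrader, differed from the ligand by 0.05 (-0.05 to 0.15, adjusted p = 0.497). SLC39A14 was higher by 0.17 (adjusted p = 0.0207), but not called without degrader replicate 2 (0.0754), degrader replicate 3 (0.0948) or ligand replicate 2 (0.0626). FLVCR1 was higher by 0.23 (adjusted p = 0.0345), but not called without degrader replicate 2 (0.12), degrader replicate 3 (0.137), ligand replicate 1 (0.133) or ligand replicate 2 (0.107).

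For the ligand against enzalutamide, edgeR called 0 members, where 1.37% of all genes were called higher and 0.667% lower. An unadjusted p under 0.05 was found for 2 members. FTL was at 0.26 (0.11 to 0.41, adjusted p = 0.089 by edgeR), with all 3 ligand libraries above the enzalutamide libraries. FTL and ACO1 were the 2 members without overlap, as were 12.6% of all genes. DESeq2 called FTL (adjusted p = 0.0273), and so did edgeR without ligand replicate 3 (0.31, 0.043). ACO1 was at 0.15 (0.05 to 0.25, adjusted p = 0.197).

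A contrast of all 4 groups asked whether the degrader's effect was larger than the effects of enzalutamide and the ligand added together on the log2 scale. It was for 5 members and smaller for 0, where 7.61% of all genes were called in each of these directions. The excess was 1.07 for HMOX1 (SE 0.18, adjusted p = 0.000823), 0.47 for FTH1 (SE 0.10, 0.00441) and 0.38 for FTL (SE 0.10, 0.0177). TFRC, with negative differences for both single compounds, had an excess of 0.29 (SE 0.07, 0.0118). SLC11A2 had 0.21 (SE 0.06, 0.0375), a call lost when any of 8 libraries was left out (adjusted p = 0.0688 to 0.111), namely degrader replicates 2 and 3, ligand replicates 1 and 2, enzalutamide replicates 1 and 3, and vehicle replicates 2 and 3. FLVCR1 (0.31, adjusted p = 0.0676) was called by DESeq2 (0.048), and by edgeR without degrader replicate 1 (0.0414), ligand replicate 3 (0.0243) or vehicle replicate 1 (0.0119). These comparisons with vehicle share the same 3 vehicle libraries.

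The wider iron gene lists held changes in both directions. Of 23 genes of iron transport and regulation that were tested, 2 rose and 7 fell with the degrader (median -0.13), where 16.4% of all genes were called higher and 16.4% lower. The metal importer gene SLC39A8 had 95.03 to 102 CPM with the degrader and 149 to 157 CPM with vehicle, and fell by 0.63 (SE 0.05, adjusted p = 1.78e-07). The metalloreductase genes STEAP4 (-1.43) and STEAP1 (-0.49) also fell, and the prion protein gene PRNP rose (0.36). Other called genes, named after their values were seen, were CP, the ferroxidase ceruloplasmin (-0.74), STEAP3 (-0.35), BMP6 (-0.48), the iron chaperone gene PCBP1 (-0.13) and the lysosomal channel gene MCOLN1 (0.20). Without degrader replicate 1, vehicle replicate 2 or vehicle replicate 3, 1 gene of this list rose. Ferroportin, the cellular iron exporter encoded by SLC40A1, also named after its values were seen, was at -0.16 (adjusted p = 0.0551).

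Heme synthesis and breakdown genes went both ways, with 6 of 27 higher and 8 lower with the degrader (median -0.06), where 16.4% of all genes were called in each direction. FLVCR2, a transporter of the FLVCR1 family, had 7.60 to 8.63 CPM with the degrader and 3.81 to 4.04 CPM with vehicle, and rose by 1.02 (SE 0.09, adjusted p = 5.25e-07). BLVRB, a biliverdin reductase, rose by 0.46, and HEBP2, a heme-binding protein gene, fell by 0.26. The lower calls of this list numbered 3 without degrader replicate 2, 4 without vehicle replicate 1 and 5 without vehicle replicate 2. Iron-sulfur cluster genes were lower in 8 of 30 cases and higher in 2 (median -0.11), beside the same 16.4% of all genes in each direction. Without degrader replicate 3, vehicle replicate 1 or vehicle replicate 2, 5 were lower. BOLA3 (-0.52) and GLRX3 (-0.30) fell, while the cluster scaffold gene ISCU (0.39) and its chaperone HSPA9 (0.28) rose.

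Of 21 tested genes of lipid peroxidation and ferroptosis, the form of cell death that depends on iron, 9 rose and 6 fell (median 0.04), where 16.4% of all genes were called in each direction. CHAC1, which degrades glutathione, rose by 2.35 (SE 0.14, adjusted p = 3.78e-09), with 15.95 to 17.1 CPM with the degrader against 3.07 to 3.38 CPM with vehicle. SLC3A2 (0.94), which pairs with the cystine transporter SLC7A11, rose as well, as did the glutamine transporter gene SLC1A5 (0.60) and CBS (0.58). SLC7A11 itself rose by 1.59, ACSL4 by 0.97, GCLM by 0.34, AIFM2 by 0.33 and TXNRD1 by 0.26. These were named after their values were seen. The 6 genes that fell were ALOX15 (-0.48), VDAC3 (-0.40), DHODH (-0.28), GSS (-0.26), GCLC (-0.23) and VDAC2 (-0.22). They too were named after their values were seen. Among 18 transcription factors of iron and heme genes, 8 rose and 2 fell (median 0.20), again beside 16.4% of all genes each way. ATF4, the factor of the integrated stress response, rose by 0.79 (SE 0.05, adjusted p = 9.78e-09), NFE2L1 by 0.76, MITF by 0.51 and MAFG, a partner of NRF2, by 0.42. The factors that fell, MAFK (-0.21) and TFEB (-0.23), were named after their values were seen. Lower calls of this list numbered 0 without degrader replicate 3, and 1 without degrader replicate 2, vehicle replicate 1 or vehicle replicate 3. Regulators of HMOX1 were also named after their values were seen. NFE2L2, which encodes NRF2, was at 0.06 (-0.06 to 0.19, adjusted p = 0.435), its inhibitor KEAP1 at 0.00 (-0.14 to 0.14, 0.994), and BACH1, a repressor of HMOX1, rose by 0.48 (SE 0.11, adjusted p = 0.00468).

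**Figure D4:**
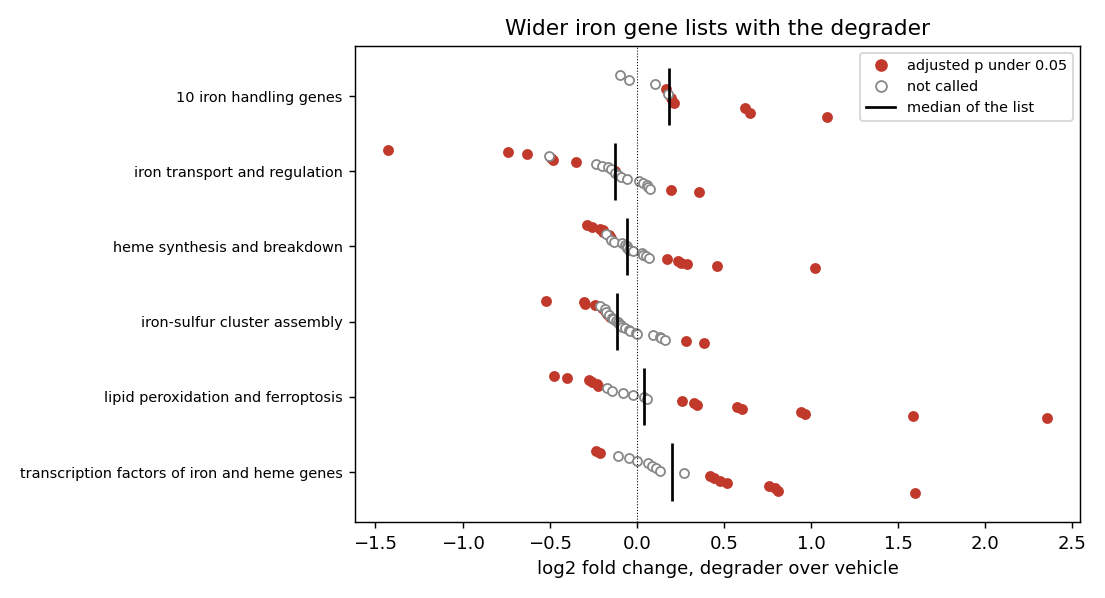
Log2 fold change of the degrader over vehicle (x axis) for the 10 iron handling genes and for each tested gene of the 5 wider lists; red points have an adjusted p under 0.05 by edgeR, and the black line is the median of a list. The medians run from -0.13 (iron transport and regulation) to 0.20 (transcription factors).

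With enzalutamide, 4 of the 23 iron transport genes fell and 0 rose, where 1.09% of all genes were called lower and 0.35% higher. They were STEAP1 at -0.68 (adjusted p = 5.02e-07), SLC39A8 at -0.41 (0.000221), and, named after their values were seen, STEAP2 at -0.59 (0.00994) and STEAP4 at -0.56 (0.0234). Without enzalutamide replicate 1, 2 were called. GCLC, the catalytic subunit of an enzyme of glutathione synthesis, fell by 0.58 (SE 0.05, adjusted p = 9.81e-07). Its levels were 100.5 to 102 CPM with enzalutamide, against 146 to 156 CPM with vehicle. GCLC was the one gene of the ferroptosis list called with enzalutamide. It was also called lower with the degrader (-0.23, adjusted p = 0.00119 by edgeR). With the ligand, edgeR called 0 genes in each of the 5 lists, and DESeq2 called 1, in the iron transport list. At an unadjusted p under 0.05 the ligand gave 4 iron transport genes, 5 ferroptosis genes, 1 transcription factor and 0 in the other lists.

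The genes whose log2 CPM over the 12 libraries was most like that of FTH1, among 11578 genes, were NUPR1, ESYT1, PYCR1, MVD and PRDX5, with Pearson's r from 0.989 to 0.995. Most like HMOX1 were ACSS2, TRIM16, STT3A, S100P and EIF1, with r from 0.981 to 0.987. All 10 of these genes rose with the degrader, by 0.26 (STT3A) to 1.58 (MVD). The degrader libraries stand apart from the other 9 for FTH1 and HMOX1, so genes picked for likeness over the same libraries would also rise. The r values and these rises are given as a description. Replicate 1 was the lowest of its group for FLVCR1 in 4 of 4 groups, and in 3 of 4 for TFRC, SLC11A2, SLC39A14, IREB2 and ACO1.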

How the data were processed

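Per the labels, RNA from 22Rv1 cells was extracted with Trizol and made into 12 stranded mRNA libraries. HISAT2, StringTie and the GRCh37 build are named in the submitters' processing notes; versions are not given in the sources used here. The authors deposited, per the file headers, a raw read count and an FPKM value (scaled to length and depth by the authors) for each gene and library. A deposited score column gives a signed linear fold change for each compound over vehicle, and a deposited p-value column the authors' Benjamini-Hochberg adjusted p. A further 24 per-sample columns were not used. Every listed gene has at least 1 read in each library.

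Of 18668 listed genes, 17702 passed filterByExpr (minimum count 10, total 15). Counts were scaled by TMM (0.987 to 1.016) and fitted by edgeR 4.0.16 (R 4.3.3) with robust quasi-likelihood over all 12 libraries, with 8 residual degrees of freedom and adjustment over all genes. The depth was 55.5 to 77.2 M reads. Counts of 2 replicates of a group differed with a chi-square of 5.23 to 21.3 for each degree of freedom, so spread between cultures, and not counting error, limits precision. Levels are TMM-scaled CPM (between libraries) or FPKM (between genes). The model was tested on simulated data first. All 10 genes are named, with up to 4 called members with the smallest p of each wider list. Not every gene chosen by this rule is reported here. Members, lists and tests were chosen with earlier results of these data known. Alternatives were DESeq2 1.42.0, limma-voom (limma 3.58.1), RLE scaling, no filter, a replicate block, only 2 groups in the fit, added pseudogene rows, CPM ranks, and each library left out. Whether the counting used strand is not given in the sources used here.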

Additional observations from a re-analysis of the deposited data

How the results depend on the processing

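FTH1, FTL, HMOX1, SLC11A2 and ACO1 kept their call for degrader against vehicle under every alternative run, between 0.58 and 0.70 for FTH1, 0.57 and 0.72 for FTL, and 0.94 and 1.24 for HMOX1. With 1 library left out, the number of members called was 5 to 7 for degrader against vehicle, 6 to 8 against enzalutamide, 5 to 7 against the ligand, 4 to 6 beyond the sum, 0 to 1 for ligand against vehicle and for ligand against enzalutamide, and 0 for enzalutamide against vehicle. The labels do not say that replicate numbers mark a shared culture or day. Deviations of same-numbered libraries correlated by -0.03 to 0.21 (median 0.08) in 18 pairs, 7 of them over 0.1, those of other numbers by -0.17 to 0.07 (median -0.05) in 36 pairs, 0 over 0.1, and 9 of 12 libraries correlated best with their own number. This is a hint from the data and not the design, so the fit without the block was kept. With the replicate block, 1 member was called for ligand against vehicle (FTL, adjusted p = 0.000475) and 1 for ligand against enzalutamide (FTL, 7.5e-05), and TFRC (0.0358) and FLVCR1 (0.00479) were called for degrader against vehicle, and SLC39A14 (0.0224) and FLVCR1 (0.00274) beyond the sum; the cause was not tested. DESeq2 called 1 member for ligand against enzalutamide and 1 iron transport gene for the ligand. For enzalutamide, 1 transcription factor was called under the replicate block, DESeq2 or only 2 groups in the fit. The alternatives for the wider lists were chosen after seeing the data. Ranked by CPM in place of FPKM, FTH1 stood above FTL, IREB2 above SLC11A2 and SLC39A14, and ACO1 above FLVCR1. SLC11A2 with enzalutamide turned to -0.00095 without the filter and to -0.0011 with only 2 groups. With 1 library left out, the sign also turned for uncalled differences near 0, whose ranges follow. For enzalutamide against vehicle they were -0.037 to 0.057 (FTH1), -0.063 to 0.082 (FTL), -0.029 to 0.025 (SLC11A2), -0.025 to 0.022 (ACO1) and -0.053 to 0.036 (SLC39A14). For ligand against vehicle they were -0.042 to 0.016 (NCOA4), -0.024 to 0.028 (SLC11A2), -0.047 to 0.026 (SLC39A14) and -0.13 to 0.017 (FLVCR1). For ligand against enzalutamide they were -0.052 to 0.047 (TFRC), -0.014 to 0.036 (SLC11A2), -0.071 to 0.060 (IREB2), -0.038 to 0.051 (SLC39A14) and -0.024 to 0.068 (FLVCR1). IREB2 ran from -0.074 to 0.0099 for degrader against enzalutamide, from -0.081 to 0.050 against the ligand and from -0.015 to 0.12 beyond the sum, and NCOA4 from -0.061 to 4.2e-06 for degrader against ligand. The log2 FTH1 to FTL ratio ran from -0.029 to 0.066 for the degrader and from -0.025 to 0.070 for enzalutamide.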
